A study of Homo sapiens with 6 samples.

Results

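The genes described are 10 amino acid transporters of the plasma membrane, SLC7A5, SLC3A2, SLC1A5, SLC7A1, SLC38A1, SLC38A2, SLC1A4, SLC43A1, SLC6A9 and SLC7A2. They were chosen by symbol from the 25969 genes of the files. No threshold on their values was applied, but earlier results of these data were known when they were chosen. All 10 had a value in every library and all 10 were tested. RNA was sequenced from 3 libraries of cells transfected with a VIM-AS1 overexpression plasmid, VIM-AS1 being a noncoding transcript antisense to the vimentin gene, and from 3 control libraries of cells given the pcDNA3.1 vector, a common expression plasmid. Both groups carry the label LNCaP, an androgen-sensitive human prostate cancer line derived from a lymph node metastasis, and no label gives a time after transfection, a stable or transient state, or a dose. The labels do not state whether replicate libraries derive from independent cultures. The p-values therefore describe variation among the sequenced libraries, and that variation may be technical.

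Cells import amino acids through carriers that differ in substrate and driving force. SLC7A5 (LAT1) is the catalytic light chain that exchanges large neutral amino acids such as leucine, and SLC3A2 (CD98) is the heavy chain that carries it to the cell surface. SLC1A5 (ASCT2) and SLC1A4 (ASCT1) are sodium-dependent exchangers of small neutral amino acids, SLC1A5 also of glutamine, and the SLC38 carriers SLC38A1 and SLC38A2 couple uptake of glutamine and other small neutral amino acids to sodium. SLC7A1 (CAT1) and SLC7A2 (CAT2) carry the cationic amino acids arginine, lysine and ornithine, SLC43A1 (LAT3) is a facilitative carrier of leucine and other large neutral amino acids that needs no heavy chain and is known as abundant in prostate, and SLC6A9 (GLYT1) couples glycine to sodium and chloride. Leucine and arginine brought in by such carriers are sensed at the lysosome, where they promote activity of the growth kinase complex mTORC1. Transcription of several of these genes is known to respond to ATF4, which binds amino acid response elements, and to MYC, which binds E-boxes.

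Short windows around matches to these elements are shown for a selection of the promoters that hold one. The windows were read from RefSeq promoters on GRCh38.p14, each spanning 250 bases before to 50 bases after a start, and 9 of the 10 genes had at least 1 such promoter, 16 promoters in all. The amino acid response core TGATGNAA, searched on both strands, was present in 5 of the 16 promoters, against 1270 of 35116 RefSeq promoters (3.62%). Capitals mark the match, and each window is written 5′ to 3′ on the strand of its gene. SLC3A2 and SLC1A4 hold the core on the other strand, so their capitals show its reverse complement.
SLC7A1: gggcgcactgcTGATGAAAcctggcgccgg
SLC38A1: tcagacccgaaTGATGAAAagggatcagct
SLC1A5: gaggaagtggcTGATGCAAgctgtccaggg
SLC3A2: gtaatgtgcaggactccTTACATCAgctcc
SLC1A4: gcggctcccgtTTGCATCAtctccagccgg
The SLC7A1 window lies at chr13:29595663-29595692 on the minus strand and its match begins at position 8 of the transcript. That of SLC38A1 is chr12:46266502-46266531, minus strand, with the match at -4, and that of SLC1A5 is chr19:46784893-46784922, minus strand, with the match at -97. That of SLC3A2 is chr11:62881719-62881748, plus strand, with the match at 38, and that of SLC1A4 is chr2:64989381-64989410, plus strand, with the match at -7. Positions count from 1 at the annotated start, with no position 0, and several genes have more than 1 start.

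The E-box CACGTG, which reads the same on both strands, was present in 3 of the 16 promoters, against 2548 of 35116 (7.26%), and the windows of SLC7A5 and SLC43A1 are shown because both genes encode leucine carriers.
SLC7A5: gccggacgacgCACGTGctccgagctgggc
SLC43A1: agcgggcgagtCACGTGcgcgtgaaactcg
The SLC7A5 window lies at chr16:87869619-87869648 and that of SLC43A1 at chr11:57515796-57515825, both on the minus strand, with matches at -130 and -112. No match to either motif was found in the windows of SLC38A2 and SLC6A9. A match is a run of letters, not a measured binding site.

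The labels were checked before the transporters. VIM-AS1 had 2197, 2019 and 2763 normalized reads in VIM-AS1 overexpression libraries 1, 2 and 3, against 8.63, 1.22 and 5.53 in control libraries 1, 2 and 3, a log2 fold change of 8.80 ± 0.46 (SE; limma without a further term, adjusted p = 1.62e-05). Markers of LNCaP went against the label: the defining secreted product KLK3 (prostate-specific antigen) had 0 reads in 5 of the 6 libraries and 2 reads in control library 1, and FOLH1 (prostate-specific membrane antigen) was at 0 in all VIM-AS1 overexpression libraries and between 0 and 3.84 normalized reads in controls. The luminal keratin KRT8 was abundant, at 75797 ± 21557 normalized reads in VIM-AS1 overexpression libraries and 80912 ± 23113 in controls (SD, n = 3 each). Of 10 luminal markers listed, 7 had a value, and their sum ran between 68069.7 and 121660.5 normalized reads in VIM-AS1 overexpression libraries and between 75741 and 138711 in controls. KLK2, TMPRSS2 and STEAP2 were not analysed here. The libraries are therefore called by their label only, and not as LNCaP by their expression. Recovered reads ranged from 14762893 to 19889745 a library, and the transporters had between 223 and 40746 reads each in a library.

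In both groups library 3 differed from libraries 1 and 2. The shift of the third libraries against the first and second ran with GC content, with a Spearman rho of -0.83 across 13168 genes, which share the same 6 libraries and are not independent. Medians were taken over a smaller set, the genes with a mean of at least 100 normalized reads. In that set, genes under 45% GC had a median shift of 0.66 on the log2 scale (n = 3155). Genes of 55% GC and over had one of -0.58 (n = 3303). The transporters took part in it: SLC38A2 (38.1% GC), SLC7A2 (41.0%) and SLC38A1 (41.3%) were higher in the third libraries by 1.18, 0.72 and 1.0, and the other 7, of 46.5% to 61.3% GC, had shifts between -0.72 and -0.19. For every transporter but SLC7A1 this shift was larger in size than the difference between the groups.

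**Figure D1:**
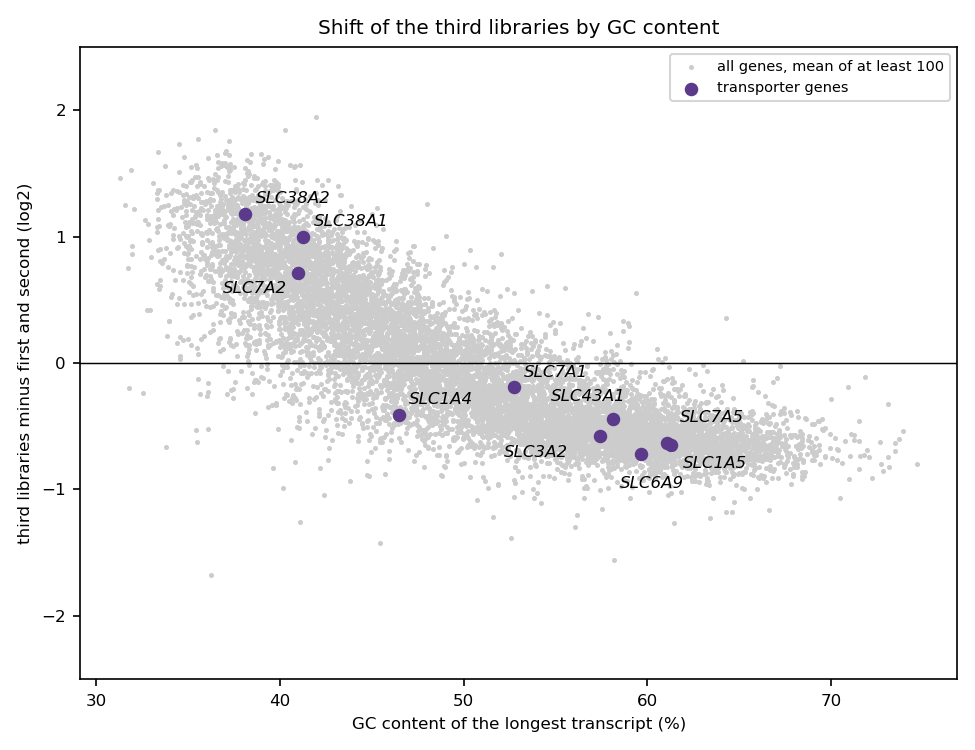
Shift of the third libraries of both groups against the first and second (log2, y axis) by GC content of the longest transcript (percent, x axis). Each grey point is a gene with a mean of at least 100 normalized reads and purple points are the 10 transporters; SLC38A2 (1.18), SLC38A1 (1.0) and SLC7A2 (0.72) sit above 0 and the other 7 below it.

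The comparison was therefore fitted in 3 ways with limma on log2(normalized reads + 1), with p-values adjusted by Benjamini-Hochberg over 20927 genes. A fit without a further term called 0 of the 10 transporters and 5 genes in all (0.0239% of those tested), with 3 genes higher (0.0143%) and 2 lower (0.00956%) in VIM-AS1 overexpression libraries. edgeR and DESeq2 without a further term also called 0 of the 10, and 1 of the 10, SLC7A1, had an unadjusted limma p under 0.05, at 0.049. A fit with a term for the third libraries called 19.4% of genes, 11.5% higher and 7.94% lower, and "rose" and "fell" refer to it throughout. A fit with the replicate number of the labels as a block called 26.6% of genes, 15.8% higher and 10.8% lower. The fold change of a gene is the same in the 3 fits, and its error is not.

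Among the 10 transporters, SLC7A1 rose (limma with the third-library term), none fell, and 9 did not pass. That is 1 of 10 against the 11.5% of all genes that were called higher. The 9 other than SLC43A1 were higher in all 3 same-numbered pairs, which held for 26.8% of all genes, and SLC43A1 was lower in all 3, which held for 25.0%. The median log2 fold change of the 10 was 0.23, against -0.02 for all tested genes and 0.11 for the 9758 with a mean of at least 100. With the replicate block, limma called 5 of the 10 higher (SLC7A5, SLC3A2, SLC1A5, SLC7A1 and SLC1A4), against 15.8% of all genes, and SLC43A1 lower, against 10.8%. Without both libraries of number 2, the block called SLC3A2, SLC7A1 and SLC1A4 higher and 0 lower, and without those of number 3 it called SLC7A1 alone.

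**Figure D2:**
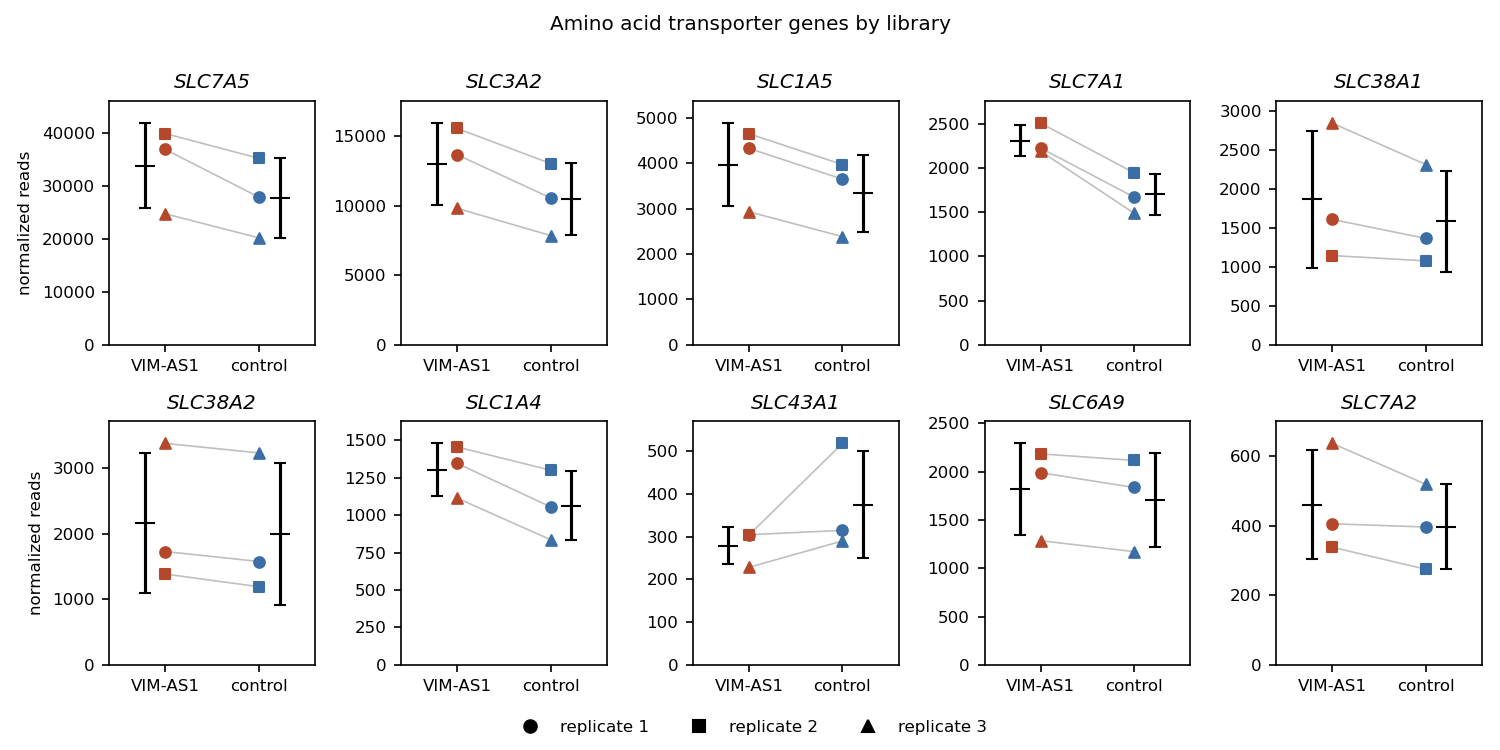
Normalized reads (linear y axes from 0) of the 10 transporters in VIM-AS1 overexpression libraries (red, left) and control libraries (blue, right), with the replicate number as the symbol, grey lines joining equal numbers, and bars for mean ± SD (n = 3). Lines slope down to the right for 9 genes and up for SLC43A1, and only for SLC7A1 do the groups not overlap.

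SLC7A1, the main carrier of arginine and lysine in most cells (chr13:29509410-29595688, minus strand), had 2227, 2509 and 2191 normalized reads in VIM-AS1 overexpression libraries 1, 2 and 3, against 1671, 1946 and 1488 in control libraries 1, 2 and 3. Every VIM-AS1 overexpression library lay above every control library, a pattern that 9.50% of all genes showed in the same direction, 10.3% in the opposite one and 19.8% in either. None of the other 9 transporters showed it. The mean was 2309 ± 174 in VIM-AS1 overexpression libraries and 1702 ± 231 in controls (SD, n = 3 each), and SLC7A1 rose 1.36-fold (95% interval 1.17 to 1.59; limma with the third-library term, log2 0.45 ± 0.11 SE, adjusted p = 0.00513). Without a further term the adjusted p of limma was 0.36. The difference was 0.39 between the first and second libraries and 0.56 between the third libraries. Leaving out VIM-AS1 overexpression library 2, VIM-AS1 overexpression library 3 or control library 3 ended the call, with limma adjusted p-values of 0.053, 0.17 and 0.17.

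The other cationic carrier, SLC7A2 on chromosome 8, had 405.6, 338 and 636 normalized reads in VIM-AS1 overexpression libraries 1, 2 and 3, against 396, 275 and 519 in control libraries 1, 2 and 3. The groups overlapped, and library 3 was highest in both. Its log2 fold change was 0.21 ± 0.14 (SE; limma with the third-library term, adjusted p = 0.34), with an interval of -0.08 to 0.50. Leaving out control library 1 gave a log2 fold change of 0.37 (limma adjusted p = 0.0355), and leaving out control library 2 gave 0.07 (limma adjusted p = 0.77). Per kilobase of exon, SLC7A1 made up 83.8% ± 5.32 of the summed cationic carriers in VIM-AS1 overexpression libraries and 81.3% ± 6.63 in controls (SD, n = 3 each), a difference smaller than the spread.

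SLC7A5, the light chain of the leucine exchanger (chr16:87830023-87869488, minus strand), had 36915, 39921 and 24744 normalized reads in VIM-AS1 overexpression libraries 1, 2 and 3, against 27894, 35242 and 20195 in control libraries 1, 2 and 3. Library 3 was lowest in both groups and VIM-AS1 overexpression library 3 lay below control libraries 1 and 2, so that the groups overlapped. The log2 fold change was 0.29, with an interval of -0.01 to 0.59 and an adjusted p of 0.17 in limma with the third-library term. It was 0.73 without a further term and 0.025 with the replicate block, again in limma. The difference was 0.29 within libraries 1 and 2 and also within library 3.

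Its heavy chain SLC3A2 (chr11:62856102-62888875, plus strand) had 13679, 15573 and 9819.6 normalized reads in VIM-AS1 overexpression libraries 1, 2 and 3, against 10569.7, 13045 and 7859.6 in control libraries 1, 2 and 3. The order of the libraries was that of SLC7A5, and VIM-AS1 overexpression library 3 again lay below control libraries 1 and 2. The log2 fold change was 0.32, with an interval of 0.06 to 0.57, and the limma adjusted p was 0.077 with the third-library term, 0.67 without it and 0.00456 with the replicate block. Leaving out control library 2 gave 0.40 (limma with the third-library term, adjusted p = 0.0399), and the other 5 omissions gave 0.23 to 0.37, with limma adjusted p-values of 0.12 to 0.35.

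The balance of the 2 chains within a library does not depend on the scaling between libraries. Per exon length, SLC7A5 stood to SLC3A2 as 2.94, 2.80 and 2.75 to 1 in VIM-AS1 overexpression libraries 1, 2 and 3, and as 2.88, 2.95 and 2.80 to 1 in control libraries 1, 2 and 3. The values of the groups interleave, and the log2 difference was -0.02 (two-sided exact permutation p = 0.5, n = 3 each, where 0.1 is the smallest p possible). Ranked by how closely its profile over the 6 libraries follows that of SLC7A5 (root-mean-square difference of centred log2 values), SLC3A2 was number 16 of 9757 genes, at 0.0382. The closest 3 were DRG2 at 0.0223, SNHG11 at 0.0241 and TBC1D13 at 0.0255, with GC contents between 53.9% and 57.9%, and the third-library shift is part of every such profile. SLC1A5 followed as number 124, whereas SLC38A1 and SLC38A2 were numbers 8939 and 9272.

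SLC43A1, the leucine carrier that works without the heavy chain (chr11:57484534-57515786, minus strand), was lower in every same-numbered pair. It had 304.5, 303.7 and 228 normalized reads in VIM-AS1 overexpression libraries 1, 2 and 3, against 315, 518 and 289.9 in control libraries 1, 2 and 3. Control library 2 stood well above the others, while VIM-AS1 overexpression libraries 1 and 2 lay between control libraries 3 and 1, so that the groups overlapped. The log2 differences of the same-numbered pairs were -0.05, -0.77 and -0.34. The log2 fold change was -0.39, with an interval of -0.71 to -0.06, and the limma adjusted p was 0.090 with the third-library term, 0.58 without it and 0.0193 with the replicate block. Leaving out control library 1 gave a log2 fold change of -0.59 (limma with the third-library term, adjusted p = 0.00257), and leaving out control library 2 gave -0.18 (adjusted p = 0.42). The other 4 omissions gave -0.41 to -0.38, with limma adjusted p-values of 0.22 to 0.37. With the replicate block and both libraries of number 2 left out it was -0.20 (limma adjusted p = 0.40).

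Set against each other within a library, the 2 leucine carriers separated the groups. The ratio of SLC7A5 to SLC43A1 per exon length was 90.0, 97.5 and 80.4 in VIM-AS1 overexpression libraries 1, 2 and 3, against 65.8, 50.5 and 51.7 in control libraries 1, 2 and 3. Every VIM-AS1 overexpression library exceeded every control library, with means of 89.3 ± 8.60 in VIM-AS1 overexpression libraries and 56.0 ± 8.49 in controls (SD, n = 3 each), a 1.6-fold difference. The two-sided exact permutation p was 0.1, the smallest that 3 against 3 libraries can give, so this design cannot place it below 0.05. Among single genes, 19.8% had groups that did not overlap in either direction, and no such share was taken over ratios. Among 4 leucine-preferring carriers summed per kilobase, SLC7A5 held 97.8% ± 0.15 in VIM-AS1 overexpression libraries and 97.0% ± 0.35 in controls. SLC43A1 held 1.1% ± 0.11 in VIM-AS1 overexpression libraries and 1.75% ± 0.24 in controls (SD, n = 3 each), and SLC43A2 and SLC7A8 the rest.

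SLC1A5, the glutamine exchanger (chr19:46774883-46788594, minus strand), had 4326, 4648 and 2929 normalized reads in VIM-AS1 overexpression libraries 1, 2 and 3, against 3647, 3969 and 2381 in control libraries 1, 2 and 3. VIM-AS1 overexpression library 3 lay below control libraries 1 and 2, and the other VIM-AS1 overexpression libraries above all controls. The log2 fold change was 0.26, with an interval of 0.05 to 0.47, and the limma adjusted p was 0.083 with the third-library term, 0.73 without it and 0.0109 with the replicate block. Of its exon bases, 780 (23.4%) overlap the antisense transcript AC008622.2, which averaged 6.38 normalized reads, and the library kit named in the labels does not mark strand.

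Its relative SLC1A4, the alanine, serine, cysteine and threonine exchanger (chr2:64988477-65023865, plus strand), had 1345, 1455 and 1113 normalized reads in VIM-AS1 overexpression libraries 1, 2 and 3, against 1055, 1299.9 and 836 in control libraries 1, 2 and 3. Only VIM-AS1 overexpression library 3, below control library 2, made the groups overlap. The log2 fold change was 0.31, with an interval of 0.08 to 0.54, and the limma adjusted p was 0.053 with the third-library term, 0.61 without it and 0.00582 with the replicate block. Leaving out control library 2 gave 0.41 (limma with the third-library term, adjusted p = 0.0199), and the other 5 omissions gave 0.24 to 0.36, with limma adjusted p-values of 0.095 to 0.36. The split between the pair was 86.2% SLC1A5 per kilobase in VIM-AS1 overexpression libraries and 86.6% in controls, a difference smaller than the spread of either group.

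The sodium-coupled glutamine carriers varied most with library 3. SLC38A1 (chr12:46183063-46270017, minus strand) had 1606, 1142 and 2839.6 normalized reads in VIM-AS1 overexpression libraries 1, 2 and 3, against 1361, 1074 and 2309 in control libraries 1, 2 and 3. SLC38A2 (chr12:46358189-46372867, minus strand), the carrier known to be induced by amino acid shortage, had 1729, 1385 and 3378 in VIM-AS1 overexpression libraries 1, 2 and 3, against 1577, 1192 and 3233 in control libraries 1, 2 and 3. In both genes library 3 was highest in each group and the groups overlapped. The log2 fold changes were 0.21 (interval -0.06 to 0.47) for SLC38A1 and 0.14 (interval -0.11 to 0.39) for SLC38A2, with limma adjusted p-values of 0.28 and 0.47 with the third-library term. With the replicate block they were 0.051 and 0.20 in limma. Leaving out control library 1 gave 0.32 for SLC38A1 (limma with the third-library term, adjusted p = 0.049). Leaving out VIM-AS1 overexpression library 1 or control library 2 gave 0.08 or 0.12 (limma adjusted p = 0.77 or 0.61). Over all omissions of 1 library with this term, the log2 fold change of SLC38A1 ran from 0.08 to 0.36. For SLC38A2 leaving out 1 library gave 0.01 to 0.24, with limma adjusted p-values of 0.12 to 0.96.

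The glycine carrier SLC6A9 (chr1:43991500-44031467, minus strand) had 1989, 2184 and 1285 normalized reads in VIM-AS1 overexpression libraries 1, 2 and 3, against 1836, 2116 and 1172 in control libraries 1, 2 and 3. The groups overlapped and the pairs lay close together. Its log2 fold change of 0.10 was the smallest of the 10 (interval -0.12 to 0.31; limma with the third-library term, adjusted p = 0.57). It shares 404 exon bases (7.83%) with CCDC24 on the other strand, which averaged 481 normalized reads.

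**Figure D3:**
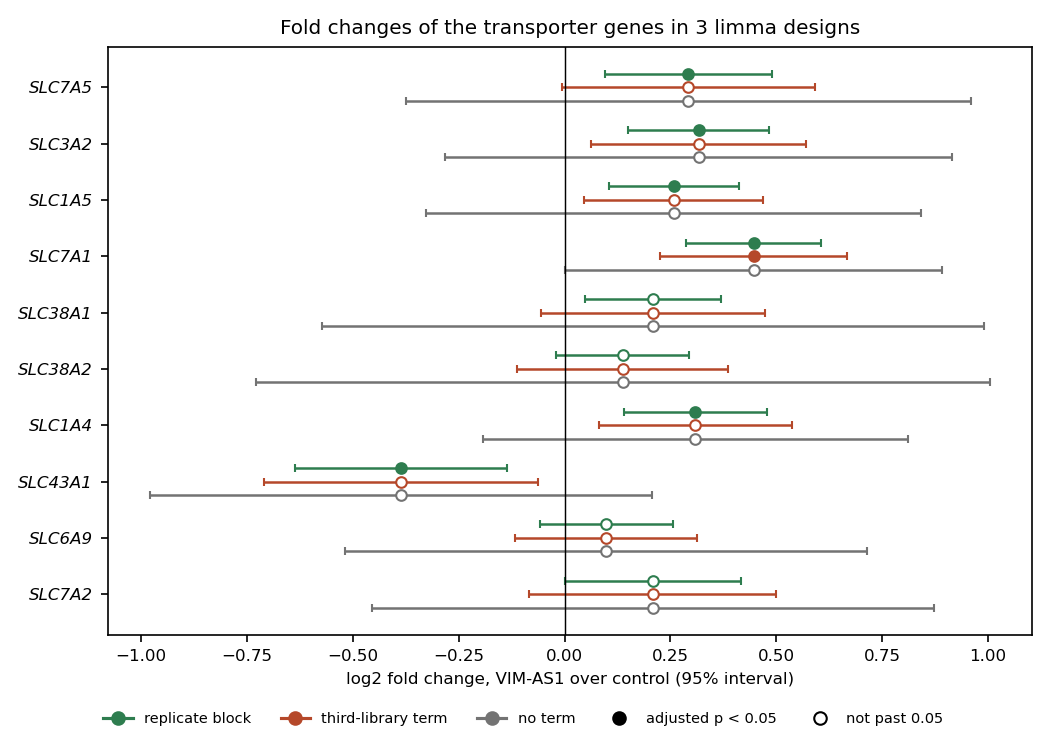
Log2 fold change of VIM-AS1 overexpression over control (x axis) with its 95% interval for each transporter in limma with a replicate block (green), with a third-library term (red) and without a further term (grey), filled where adjusted p passed 0.05. The point is the same in the 3 fits and only the interval changes: no gene is filled in grey, SLC7A1 (0.45) in red, and 6 genes in green.

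Levels were compared between genes as normalized reads per kilobase of exon. SLC7A5 was the most abundant, at 7136 ± 1694 in VIM-AS1 overexpression libraries and 5854 ± 1586 in controls, and ranked between 99 and 147 among all genes in the 6 libraries. SLC3A2 followed at 2515 ± 566.3 in VIM-AS1 overexpression libraries and 2026 ± 500.9 in controls, and SLC1A5 at 1191 ± 274 in VIM-AS1 overexpression libraries and 1000.2 ± 252 in controls (SD, n = 3 each). The lowest library of each of these genes lay above the highest library of the next. SLC6A9 came next, at 353 ± 91.6 in VIM-AS1 overexpression libraries and 331 ± 94.0 in controls. SLC38A2 had 328 ± 161 in VIM-AS1 overexpression libraries and 303 ± 164 in controls, and SLC7A1 had 300.2 ± 22.6 in VIM-AS1 overexpression libraries and 221 ± 29.98 in controls. The libraries of these genes overlapped, so their order is not separated beyond the spread.

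Lower in the order, SLC1A4 stood at 188 ± 25.1 in VIM-AS1 overexpression libraries and 153 ± 33.5 in controls, beside SLC38A1 at 186 ± 87.6 in VIM-AS1 overexpression libraries and 158 ± 64.5 in controls. SLC43A1 had 78.9 ± 12.4 normalized reads per kilobase in VIM-AS1 overexpression libraries and 106 ± 35.4 in controls, and SLC7A2 had 58.2 ± 19.8 in VIM-AS1 overexpression libraries and 50.2 ± 15.4 in controls (SD, n = 3 each). Within either pair the libraries overlapped. SLC7A5 alone supplied 57.5% ± 2.87 of the summed level of the 10 in VIM-AS1 overexpression libraries and 56.9% ± 2.88 in controls. The sum itself was 12334 ± 2407 normalized reads per kilobase in VIM-AS1 overexpression libraries and 10203 ± 2280 in controls, and the groups overlapped.

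Other measures moved with the groups, and their part in these results was not tested. Mitochondrially encoded genes took 7.06%, 6.86% and 5.57% of reads in VIM-AS1 overexpression libraries 1, 2 and 3, against 8.73%, 14.3% and 11.8% in control libraries 1, 2 and 3. Of 13 markers of fibroblasts, basal cells, leukocytes and endothelium, 11 had a value and 8 were tested. VWF rose, and COL1A1, DCN and TP63 fell (50% called against 19.4% of all genes, limma with the third-library term). Summed, the 11 came to between 1049.9 and 1535 normalized reads in VIM-AS1 overexpression libraries and between 1728 and 1958 in controls. PDGFRA and PTPRC were not analysed here, and COL1A2, LUM and PECAM1 were under the filter of a mean of 1. In bulk RNA, fewer cells of a type and less RNA per cell cannot be told apart.

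Other amino acid transporters of the plasma membrane gave no common direction. Of 28 listed, 18 had a value and 15 were tested; 3 rose, 3 fell and 9 did not pass (40.0% called against 19.4% of all genes, limma with the third-library term), with a median log2 fold change of -0.15. SLC7A6, which exchanges cationic for neutral amino acids with the SLC3A2 heavy chain, rose to 681 ± 50.1 normalized reads in VIM-AS1 overexpression libraries, against 499 ± 45.3 in controls (limma adjusted p = 0.00858). Its relatives SLC7A7 and SLC7A8, which use the same heavy chain, fell by 1.71 and 0.82 on the log2 scale (limma adjusted p-values 0.0126 and 0.0332). SLC7A7 averaged 7.07 ± 3.86 normalized reads in VIM-AS1 overexpression libraries and 23.2 ± 3.21 in controls, and SLC7A8 39.8 ± 4.78 in VIM-AS1 overexpression libraries and 73.5 ± 26.3 in controls.

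The glutamate carrier SLC1A2 fell to 3.07 ± 1.09 normalized reads in VIM-AS1 overexpression libraries, against 15.0 ± 1.39 in controls (limma adjusted p = 0.00907). SLC38A5, a glutamine and glycine carrier, and SLC6A15, a carrier of branched-chain amino acids and proline, complete the 3 that rose, with overlapping groups; they are named here after their values were seen. SLC38A5 had 4371 ± 1148 normalized reads in VIM-AS1 overexpression libraries and 2969 ± 767 in controls (limma adjusted p = 0.00176). SLC6A15 had a limma adjusted p of 0.048. SLC7A11, the cystine and glutamate exchanger that also pairs with SLC3A2, had 52.4 ± 21.4 normalized reads in VIM-AS1 overexpression libraries and 57.3 ± 18.9 in controls (SD, n = 3 each; limma adjusted p = 0.72).

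Carriers that move amino acids across lysosomal and mitochondrial membranes formed another list. Of 18 listed, 17 were tested; 8 rose, 0 fell and 9 did not pass, or 47.1% called against 19.4% of all genes (limma with the third-library term), with a median log2 fold change of 0.31. The mitochondrial ornithine carrier SLC25A15 had 374, 327 and 318 normalized reads in VIM-AS1 overexpression libraries 1, 2 and 3, against 143, 165 and 120.1 in control libraries 1, 2 and 3. It rose by 1.25 on the log2 scale (limma adjusted p = 8.55e-06). The lysosomal carrier SLC36A1 rose to 300.7 ± 11.5 normalized reads in VIM-AS1 overexpression libraries, against 175 ± 20.2 in controls (limma adjusted p = 0.000553). The mitochondrial glutamate carrier SLC25A22 rose by 0.66 and the lysosomal histidine and peptide carrier SLC15A4 by 0.57 on the log2 scale (limma adjusted p-values 0.000188 and 0.00423).

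Among 35 tested genes of amino acid sensing and mTORC1, 5 rose, 0 fell and 30 did not pass (14.3% called, below the 19.4% of all genes; limma with the third-library term), with a median log2 fold change of 0.10. MTOR, the kinase itself, had 1491, 1450.03 and 1633 normalized reads in VIM-AS1 overexpression libraries 1, 2 and 3, against 912, 1036 and 1028 in control libraries 1, 2 and 3. The groups were well apart, and MTOR rose by 0.62 on the log2 scale (limma adjusted p = 0.000282). ITFG2, a subunit of the KICSTOR complex that anchors the inhibitor GATOR1 at the lysosome, rose by 0.53 (limma adjusted p = 0.0224). The scaffold subunit RPTOR, MLST8 and LAMTOR1 also rose, with overlapping groups. With the replicate block, limma called 7 of the 35 higher and 1 lower (22.9% against 26.6% of all genes).

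Of 20 tested enzymes that use the transported amino acids, 5 rose, 0 fell and 15 did not pass (25.0% called against 19.4% of all genes; limma with the third-library term), with a median log2 fold change of 0.17. The 5 were the aspartate aminotransferases GOT1 and GOT2, ALDH18A1 and PYCR1 of proline synthesis, and GCLC of glutathione synthesis, all with overlapping groups and named after their values were seen.

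Of 15 transcriptional regulators known to act on such transporters, 2 rose, 2 fell and 11 did not pass (26.7% called against 19.4% of all genes; limma with the third-library term), with a median log2 fold change of 0.11. The replicate block gave 5 higher and 4 lower (60.0% against 26.6% of all genes). ATF5, a stress-responsive factor related to ATF4, had 417, 415 and 286 normalized reads in VIM-AS1 overexpression libraries 1, 2 and 3, against 192, 183 and 130.3 in control libraries 1, 2 and 3, and rose by 1.14 on the log2 scale (limma adjusted p = 9.86e-06). EPAS1, a hypoxia-inducible factor subunit, rose to 1373 ± 29.6 normalized reads in VIM-AS1 overexpression libraries, against 809.6 ± 83.7 in controls (limma adjusted p = 5.76e-05). The stress factor DDIT3 (CHOP) fell to 55.5 ± 9.10 normalized reads in VIM-AS1 overexpression libraries, against 95.1 ± 12.8 in controls (limma adjusted p = 0.0181), and CEBPB, a partner of ATF4 on response elements, also fell.

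ATF4 itself had 4743 ± 351 normalized reads in VIM-AS1 overexpression libraries and 5616 ± 803 in controls (SD, n = 3 each), with a log2 fold change of -0.24 and overlapping groups. Its limma adjusted p was 0.12 with the third-library term and 0.025 with the replicate block. MYC had 5182 ± 284 normalized reads in VIM-AS1 overexpression libraries and 5605 ± 347 in controls (log2 fold change -0.11; limma with the third-library term, adjusted p = 0.51). No gene of these lists was called by limma without a further term.

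**Figure D4:**
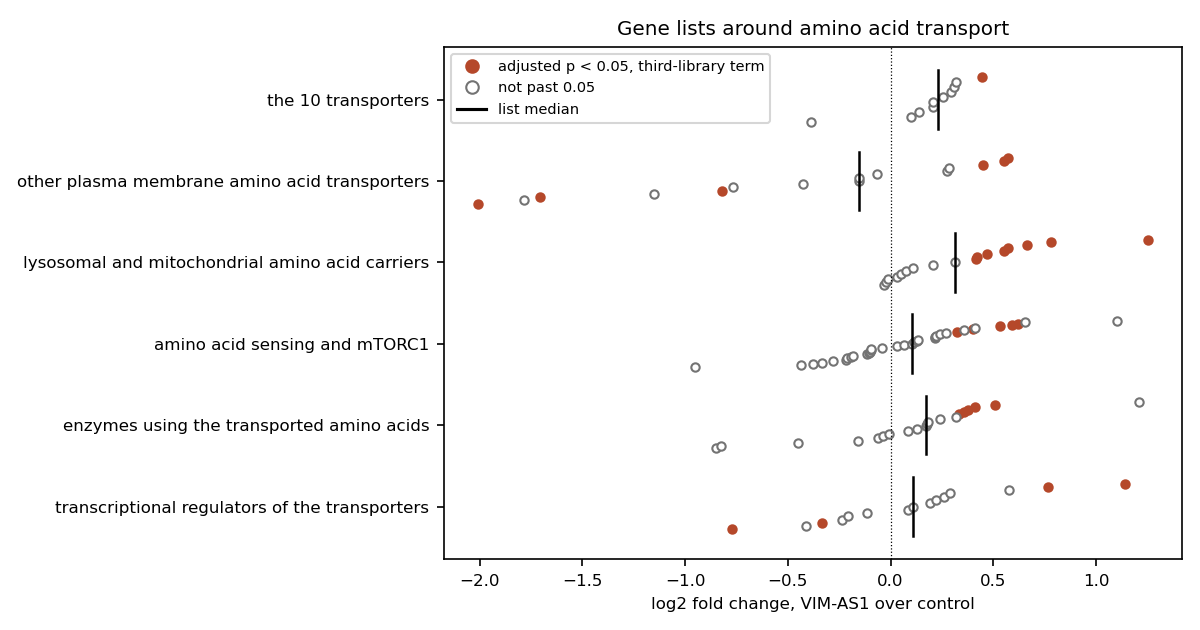
Log2 fold change of VIM-AS1 overexpression over control (x axis) for the tested genes of each list described above other than the marker lists. Points are filled in red where adjusted p passed 0.05 in limma with the third-library term, and a black line marks the list median. The 10 transporters sit at a median of 0.23 with 1 red point, and the lysosomal and mitochondrial carriers at 0.31 with 8, all to the right.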

How the data were processed

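Each deposited value is a normalized signal: the count of a gene divided by the size factor of its library. These values were made by the authors with fastp, HISAT2 on hg38 and featureCounts, per the submitters' processing notes. Versions, annotation and strand setting are not given in the sources used here. In every library 100% of values were whole reads within 0.01 read. Libraries held 14762893 to 19889745 recovered reads, and 3 reads, the limit that a count of 0 allows, equal 0.151 to 0.203 CPM, for counting error only. Libraries used 1.3 µg of total RNA and a NEBNext Ultra RNA kit, per the labels' protocols.

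GENCODE 29 (GRCh38) supplied gene positions, exon lengths and GC content. Symbols, other than the identifier itself, were found for 21072 of the 25969 IDs. Tests used limma 3.58.1 (R 4.3.3) with an intensity trend on log2(value + 1), for 20927 genes with a mean of at least 1, two-sided, with Benjamini-Hochberg adjustment and a threshold of 0.05. Fold changes on this scale understate changes of low genes. edgeR 4.0.16 and DESeq2 1.42.0 on the recovered reads were alternatives. Genes named outside the 10 are those of each list with groups that do not overlap and the largest changes (up to 4), the 3 closest profiles to SLC7A5, and SLC7A11, MYC and ATF4. Other genes and sites that this rule or the lists hold are not reported here. Listed genes with overlapping groups, and markers of other cells, are named after their values were seen. The members, the lists and the third-library term were chosen with earlier results of these data known.

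The labels number the replicates 1 to 3 in both groups. Same-numbered libraries deviated together, with correlations of 0.32, 0.72 and 0.84 over 13175 genes, and the numbers were used as a block. Each group was centred on its own 3 libraries, so the shared third-library shift by itself raises correlations among libraries 1 and 2. The correlations therefore cannot show whether libraries 1 and 2 are paired by number. The numbers come from the labels, which do not state that libraries of equal number are paired. VIM-AS1 overexpression library 1 correlated better with control library 2 (0.42). Control library 1 correlated with VIM-AS1 overexpression library 2 at 0.328, against 0.319 with library 1.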

Additional observations from a re-analysis of the deposited data

How the results depend on the processing

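Without a further term, limma called 0 transporters, also with every other filter, scaling and tool tried; over all genes it called 3 higher and 2 lower, against 5 and 12 with no filter, 15 and 13 with library size scaling, and 133 and 220 in DESeq2. The replicate block gave 3315 higher and 2256 lower, with 5 transporters higher and 1 lower. Alternatives chosen after seeing the data gave 1334 and 945 (GC and length trends removed), 3236 and 2330 with 4 and 1 transporters (replicate block with those trends removed), and 3347 and 2420 with 6 and 1 (replicate block in edgeR). Leaving out both libraries of number 1, 2 or 3 under the block gave 3569, 2180 or 1679 higher and 2010, 1247 or 1007 lower, with 6, 3 or 1 transporters higher and 1, 0 or 0 lower.

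With the third-library term, 2403 genes were called higher and 1662 lower. Transporters called higher numbered 2 when genes needed 10 or more reads in each library of either group (SLC1A4 added), 3 with library size scaling (SLC7A5 and SLC3A2 added), 4 in DESeq2 (SLC7A5, SLC3A2 and SLC1A5 added) and 3 with GC and length trends removed (SLC3A2 and SLC1A5 added). SLC43A1 was called lower in edgeR and with the trends removed, 1 transporter each. Leaving out 1 library gave 127 to 2747 higher and 109 to 1591 lower, the fewest without VIM-AS1 overexpression library 3 (141 and 139) or control library 3 (127 and 109). Either of these omissions compares libraries 1 and 2 alone. Leaving out 1 library gave 0 to 3 transporters higher and 0 to 1 lower.

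Leaving out 1 library without a further term turned the sign of 4 transporters: the log2 fold change ran from -0.15 to 0.33 for SLC6A9, -0.15 to 0.52 for SLC38A1, -0.24 to 0.55 for SLC38A2 and -0.052 to 0.43 for SLC7A2. It gave 1 to 3 genes higher and 0 to 3 lower over all genes. The ratio of SLC7A5 to SLC43A1 kept its sign (log2 0.61 to 0.80), and so did that of SLC7A5 to SLC3A2 (-0.05 to -0.00327). VIM-AS1 ran from 8.18 to 9.24 without a further term and 8.18 to 9.39 with the third-library term. The causes were not tested. The lowest transporter count in a library was 223 reads.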
